A study of Homo sapiens with 6 samples.

Results

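The genes described are those of the ATP-binding cassette (ABC) family, taken as every symbol made of Abc, a letter from a to g and a number. Abca1 and Abcg1, the cholesterol exporters of macrophages, were left out. This gave 48 genes of the 38986 in each file. The study sequenced RNA from 6 libraries in 2 groups of 3. The first group is labelled as 293T cells with STAT6 overexpression and the second as Mock 293T cells with wild-type genotype. In both the series' design text describes the cells as positive for mCherry, a red fluorescent protein. 293T is a human line from embryonic kidney, used as a transfection host, and STAT6 is the transcription factor activated by interleukin 4 and interleukin 13. The study asked what STAT6 does to mitochondrial gene expression. The labels give all the cells as a single line, grown in DMEM with fetal bovine serum. Nothing in the labels ties the libraries of a group to different cultures. A p-value here is therefore set against the spread of these 3 libraries a group, which may be technical.

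ABC proteins bind and hydrolyse ATP through a pair of conserved nucleotide-binding domains. Most use the energy to move a substrate across a membrane: members of subfamilies A and G mainly move lipids and sterols, those of B and C export drugs, conjugates, bile components or peptides, and those of D import fatty acyl-CoA into peroxisomes. Several B members sit in mitochondria and serve iron-sulfur protein assembly and haem synthesis. The E and F proteins have no membrane domain and act on ribosomes. In tumours, the drug exporters are studied for their part in resistance to treatment.

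Labels and files disagree on the organism and on the direction of Stat6. The symbols are those of mouse genes: 0 of the 48 ABC symbols matched a human symbol letter for letter, 39 did so once put in capitals, and the other 9 had no human symbol of the same letters, among them Abcb1a, Abcb1b, Abca8a, Abca8b and Abcg3. STAT6-labelled libraries held 19894773 to 23648304 counts and Mock-labelled libraries held 22368757 to 29802693. Stat6 stood at 35.1, 33.6 and 32.05 CPM (counts scaled to the adjusted library total) in STAT6-labelled libraries, against 95.2, 95.5 and 92.8 CPM in Mock-labelled libraries, the opposite of the label (log2 fold change -1.49, SE 0.045, adjusted p = 7.47e-26, edgeR). The 9 listed markers of pigment cells, such as Tyrp1 and Dct, summed to 17010 to 17160 CPM in STAT6-labelled libraries and to 14670 to 15020 CPM in Mock-labelled libraries. Of these 9, 5 were called higher and 3 lower, the lower ones being Pmel, Oca2 and Tyr, and Tyr averaged 29.1 ± 0.758 CPM in STAT6-labelled and 303 ± 5.29 CPM in Mock-labelled libraries (SD, n = 3 each). The 9 listed markers of kidney epithelium summed to 3.19 to 3.54 CPM in STAT6-labelled libraries and to 0.556 to 0.651 CPM in Mock-labelled libraries, with Pax8, Umod and Aqp2 at 0 counts in every library. Their 2 tested genes went opposite ways: Lhx1 was higher, with 198 counts in STAT6-labelled and 0 in Mock-labelled libraries, and Lrp2 was lower, with 8 counts in STAT6-labelled and 45 in Mock-labelled libraries. The 6 listed markers of fibroblasts summed to 78.5 to 84.9 CPM in STAT6-labelled libraries, and to 18.7 to 20.7 CPM in Mock-labelled libraries. Of these, Dcn, Lum and Thy1 each had 0 counts over STAT6-labelled and 1 over Mock-labelled libraries, and most of the STAT6-labelled sum was Col1a1. Col1a1 was higher, at 78.7 ± 3.14 CPM in STAT6-labelled and 4.85 ± 0.421 CPM in Mock-labelled libraries, Col1a2 was lower, at 2.14 ± 0.141 CPM in STAT6-labelled and 13.4 ± 1.46 CPM in Mock-labelled libraries (SD, n = 3 each), and Pdgfra was not called. The 6 leukocyte markers summed to 2.16 to 2.42 CPM in STAT6-labelled libraries and to 0.517 to 0.785 CPM in Mock-labelled libraries, with Adgre1 at 0 and most of the sum from Cd68. For the 5 endothelial markers the sums were 0.588 to 1.03 CPM in STAT6-labelled libraries and 0.0431 to 0.262 CPM in Mock-labelled libraries, with Cdh5 at 0. Whether any of these other cell types was present, and with what part in the values below, was not tested. "Higher" and "lower" therefore follow the labels alone, and say what the libraries labelled STAT6, here called STAT6-labelled, did relative to those labelled Mock, here called Mock-labelled.

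Most ABC genes with enough reads to test were lower in STAT6-labelled libraries. Of the 48 genes, 26 passed the filter on low counts. Of these 26, 8 were called higher and 15 lower at an adjusted p under 0.05, and 3 were not called (edgeR's quasi-likelihood test, adjusted over all 12938 genes tested). A call was common in this comparison: 72.6% of all tested genes were called, 35.8% higher and 36.8% lower. The ABC genes had a called share of 88.5%, with 30.8% higher and 57.7% lower, and a median log2 fold change of -0.27 beside -0.0033 for all tested genes. They also had more reads behind them, a median of 5950 counts over the 6 libraries against 3623 for all tested genes, and the part of read depth in the larger called share was not tested. With library totals alone in place of TMM scaling, the split was 5 higher and 16 lower, so that higher genes made up 23.8% of the calls and not 34.8%.

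Large changes were fewer and lay mostly on the lower side. Abca7 was the 1 gene called at least 2-fold higher, where 10.6% of all tested genes were. The genes at least 2-fold lower were 5, Abca12, Abcc2, Abca13, Abcb1b and Abcb8, where 4.96% of all tested genes were. Called changes past 1.5-fold in either direction numbered 11, in a table where 29.1% of genes had one. A stricter test, of whether the change itself exceeds 1.5-fold (glmTreat), called 8 ABC genes, 2 higher and 6 lower, beside 21.5% of all tested genes. The groups did not overlap in CPM for 23 of the 26 genes, and for 74.6% of all tested genes. The 6 tested Abcb genes were all lower, as the plot of fold changes by subfamily shows for 5 of them.

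**Figure D1:**
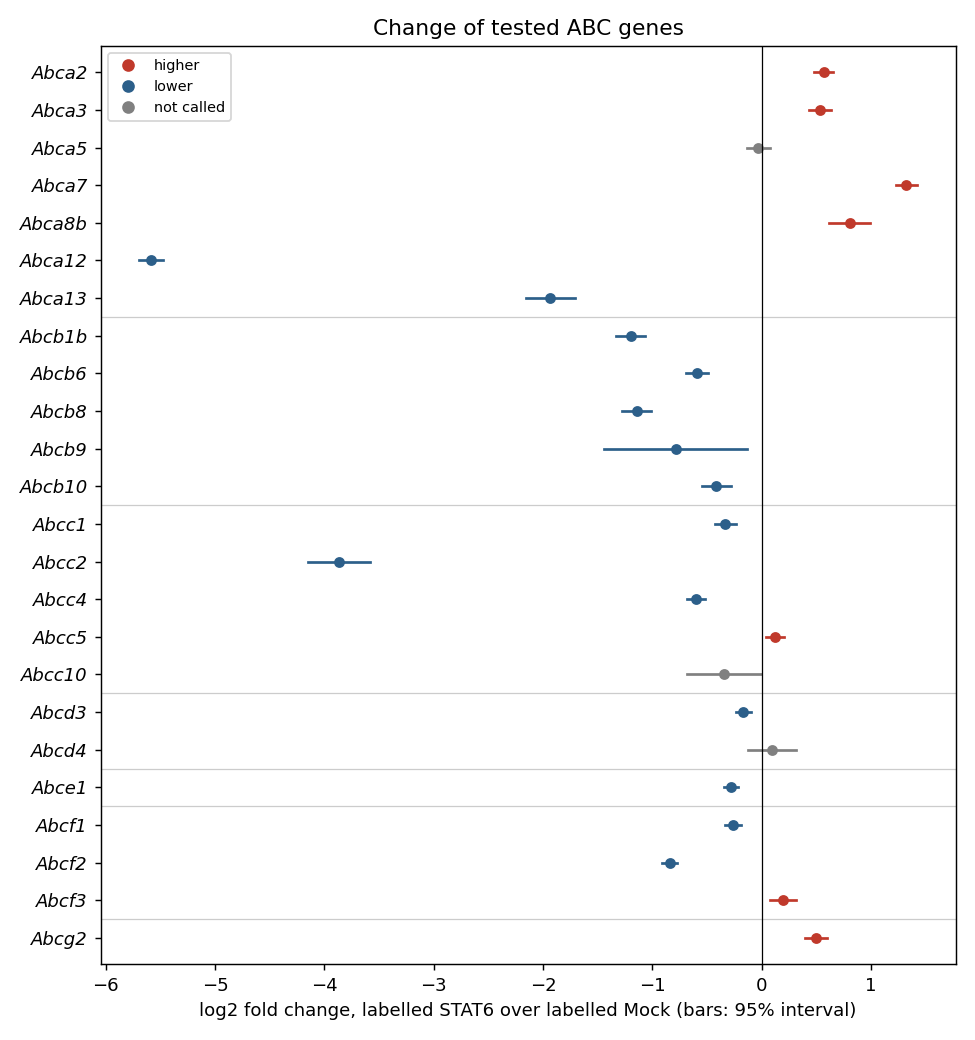
Log2 fold change of 24 of the 26 tested ABC genes, libraries labelled STAT6 over Mock-labelled libraries (n = 3 each), with 95% intervals from the edgeR fit, not adjusted for the number of genes, as bars; grey lines separate the subfamilies A to G, and colour gives the call. Abca12 at -5.58 and Abcc2 at -3.87 lie far to the left, and Abca7 at 1.32 is farthest to the right.

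Abca12 changed most. Its protein loads glucosylceramide and other lipids into the lamellar granules of keratinocytes, from which the skin's water barrier is made, and its loss in people causes harlequin ichthyosis. It stood at 7.602, 6.699 and 7.89 CPM in STAT6-labelled libraries, against 351, 371 and 346 CPM in Mock-labelled libraries. The highest of the first 3 values lies far under the lowest of the others. The means of 7.397 ± 0.621 CPM in STAT6-labelled libraries and 356 ± 13.2 CPM in Mock-labelled libraries (SD, n = 3 each) lie far apart, with a fitted difference of 47.98-fold (log2 fold change -5.58, SE 0.052, adjusted p = 6.15e-41, edgeR); folds of the tested genes are those of the fit throughout. The gene was not lost altogether, with 467 counts in STAT6-labelled and 27283 in Mock-labelled libraries.

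Abca13, a very long relative of Abca12 whose substrate is less well established, was lower as well. Its values were 3.41, 3.87 and 3.19 CPM in STAT6-labelled libraries, against 13.5, 13.9 and 12.6 CPM in Mock-labelled libraries. These groups are apart by more than their own ranges (log2 fold change -1.93, SE 0.11, adjusted p = 1.1e-17, edgeR), a 3.82-fold difference.

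The A genes that were higher were 4, Abca7, Abca8b, Abca2 and Abca3. Abca7, which moves phospholipids and takes part in phagocytosis and whose human counterpart carries risk variants for Alzheimer's disease, had 84.6, 79.1 and 85.96 CPM in STAT6-labelled libraries, against 32.7, 35.04 and 32.4 CPM in Mock-labelled libraries. The lowest of the first 3 values is far above the highest of the others, and the fitted fold was 2.499 (log2 fold change 1.32, SE 0.047, adjusted p = 1.1e-23, edgeR). Abca8b, a transporter linked to cholesterol efflux, had 12.7, 13.2 and 13.4 CPM in STAT6-labelled and 7.42, 8.19 and 6.97 CPM in Mock-labelled libraries, at lower depth and again without overlap (log2 fold change 0.81, SE 0.092, adjusted p = 1.09e-09). Its near relative Abca8a had few counts, given below, and reads shared by the 2 genes could be assigned to either.

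Abca2 and Abca3 rose by similar amounts. Abca2, found in endosomes and lysosomes and tied to sphingolipid and cholesterol handling, averaged 78.02 ± 1.86 CPM in STAT6-labelled libraries and 52.7 ± 1.99 CPM in Mock-labelled libraries (SD, n = 3 each), a fitted difference of 1.48-fold (log2 fold change 0.57, SE 0.043, adjusted p = 3.34e-14, edgeR). Abca3, which fills the lamellar bodies of lung alveolar cells with surfactant phospholipid, averaged 52.6 ± 1.87 CPM in STAT6-labelled and 36.3 ± 0.806 CPM in Mock-labelled libraries (log2 fold change 0.53, SE 0.048, adjusted p = 3.46e-12, edgeR). Both changes fell short of 1.5-fold. Abca5, a late endosomal and lysosomal member, was not called: it averaged 40.3 ± 0.978 CPM in STAT6-labelled and 41.2 ± 1.89 CPM in Mock-labelled libraries, with a 95% interval of the log2 fold change of -0.13 to 0.071. Among the 7 tested A genes 4 were therefore higher, 2 lower and 1 not called, with the widest range of any subfamily, from -5.58 to 1.32.

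**Figure D2:**
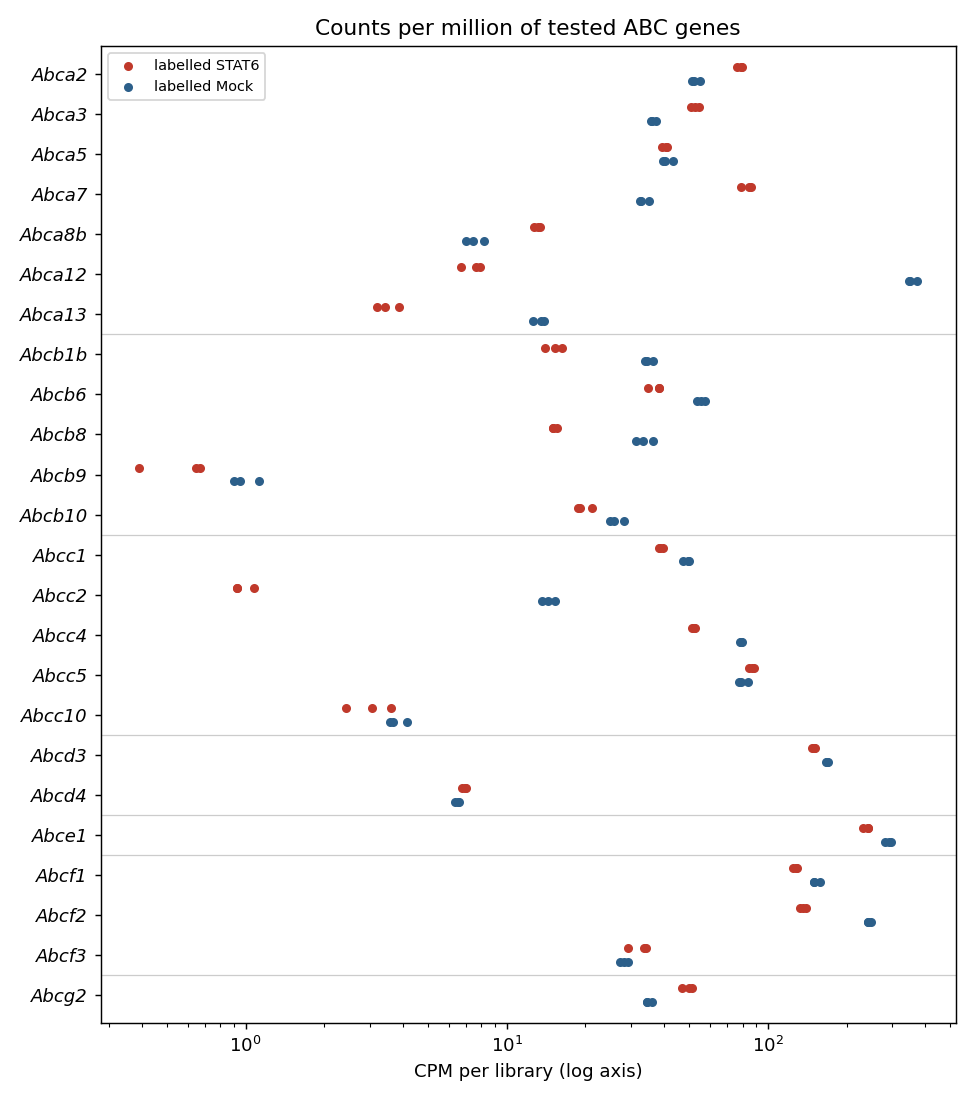
CPM of 24 of the 26 tested ABC genes in each library, on a log axis, with libraries labelled STAT6 (red) above Mock-labelled libraries (blue) in each row and 3 points per group. Points of a group lie close together, and the groups are apart in all rows but those of Abca5 and Abcc10; CPM is not divided by gene length, so rows are to be compared within a gene.

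The exporters of drugs and conjugates did not move as a block. Of 9 such genes, Abcb1a, Abcb1b, Abcc1 to Abcc5, Abcc10 and Abcg2, 7 were tested, and of these 4 were lower, 2 higher and 1 not called. Abcc2, which exports bilirubin glucuronide and glutathione conjugates into bile, changed most, at 1.08, 0.928 and 0.931 CPM in STAT6-labelled libraries, against 14.4, 15.3 and 13.6 CPM in Mock-labelled libraries. The groups are far apart, and the difference of 14.6-fold rests on 62 counts in STAT6-labelled and 1106 in Mock-labelled libraries (log2 fold change -3.87, SE 0.14, adjusted p = 1.94e-23, edgeR).

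Abcb1b is 1 of the 2 mouse genes for P-glycoprotein, the multidrug exporter encoded in people by a single gene. It had 16.2, 13.96 and 15.3 CPM in STAT6-labelled libraries, against 33.9, 34.4 and 36.3 CPM in Mock-labelled libraries, with no overlap and a 2.297-fold difference (log2 fold change -1.20, SE 0.064, adjusted p = 2.35e-18, edgeR). Abcb1a, the other P-glycoprotein gene, had 6 counts in STAT6-labelled and 10 in Mock-labelled libraries and was not tested. The 2 sequences are close, so how their reads were divided is uncertain.

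Abcc4 and Abcc1 were lower by smaller amounts. Abcc4, an exporter of cyclic nucleotides and prostaglandins, had 52.4, 51.1 and 52.5 CPM in STAT6-labelled libraries, against 78.2, 79.9 and 78.6 CPM in Mock-labelled libraries, a spread within groups of under 2 CPM (log2 fold change -0.60, SE 0.041, adjusted p = 2.61e-15, edgeR). Abcc1, the exporter of leukotriene C4 and glutathione conjugates, averaged 38.8 ± 0.855 CPM in STAT6-labelled and 48.9 ± 1.43 CPM in Mock-labelled libraries (SD, n = 3 each; log2 fold change -0.33, SE 0.048, adjusted p = 1.16e-07, edgeR).

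Abcg2 went the other way. It encodes the breast cancer resistance protein, which exports drugs, urate and porphyrins. It had 51.01, 46.8 and 49.9 CPM in STAT6-labelled libraries, against 35.9, 34.6 and 34.5 CPM in Mock-labelled libraries. The lowest of the first 3 values exceeds the highest of the others, by a fitted 1.41-fold (log2 fold change 0.50, SE 0.049, adjusted p = 4.38e-11, edgeR). Abcc5, which exports cyclic nucleotides and amino acid conjugates, was higher by 1.08-fold, at 88.4, 86.98 and 84.4 CPM in STAT6-labelled and 83.6, 77.4 and 78.6 CPM in Mock-labelled libraries (log2 fold change 0.12, SE 0.040, adjusted p = 0.00892). That call was lost with library totals alone (log2 fold change 0.044, adjusted p = 0.335) and without STAT6 replicate 1 (adjusted p = 0.056).

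Abcc10, a broad drug exporter, was not called, at 2.42, 3.61 and 3.04 CPM in STAT6-labelled libraries, against 3.56, 3.66 and 4.15 CPM in Mock-labelled libraries. These groups overlap, the unadjusted 95% interval of the log2 fold change was -0.68 to -0.0098, and the adjusted p was 0.0593 (edgeR). It was called lower with library totals alone (adjusted p = 0.0218), upper-quartile scaling (0.0477) and limma-voom (0.0496), and without STAT6 replicate 2 (log2 fold change -0.49, adjusted p = 0.0201).

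The mitochondrial transporters Abcb8 and Abcb10 were both lower. Abcb8, an inner membrane protein tied to iron export from mitochondria, had 15.6, 15.00 and 15.1 CPM in STAT6-labelled libraries, against 36.3, 31.3 and 33.4 CPM in Mock-labelled libraries. The groups are far apart, a 2.21-fold difference (log2 fold change -1.14, SE 0.065, adjusted p = 1.72e-17, edgeR). Abcb10, which supports haem synthesis in red cell precursors, had 18.7, 19.1 and 21.1 CPM in STAT6-labelled and 28.04, 24.96 and 25.7 CPM in Mock-labelled libraries (log2 fold change -0.42, SE 0.065, adjusted p = 6.99e-07).

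Abcb6 and Abcb9 were lower as well. Abcb6 is a porphyrin transporter placed in mitochondria and in lysosomes, and in pigment cells it takes part in melanosome formation. It had 34.6, 38.1 and 38.2 CPM in STAT6-labelled libraries, against 53.7, 55.6 and 57.2 CPM in Mock-labelled libraries, lower by 1.505-fold without overlap (log2 fold change -0.59, SE 0.049, adjusted p = 5.35e-13, edgeR). Abcb9, which moves peptides into lysosomes, had 36 counts over the 3 STAT6-labelled and 76 over the 3 Mock-labelled libraries. Its call as lower (log2 fold change -0.79, SE 0.32, adjusted p = 0.0262) was lost with no filter on low counts (adjusted p = 0.0573), with DESeq2 (0.0886), without STAT6 replicate 3 (0.139) and without Mock replicate 1 (0.0843).

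In subfamily D, Abcd3 was lower by a small amount and Abcd4 was not called. Abcd3, the abundant peroxisomal membrane protein PMP70 that imports branched-chain acids and bile acid precursors, had 151, 149.9 and 148 CPM in STAT6-labelled libraries, against 169, 167 and 169 CPM in Mock-labelled libraries, a 1.12-fold difference with tight groups (log2 fold change -0.17, SE 0.033, adjusted p = 2.41e-05, edgeR). Abcd4, which works with Lmbrd1 to release cobalamin from lysosomes, was not called, with means of 6.89 ± 0.1300 CPM in STAT6-labelled and 6.47 ± 0.1097 CPM in Mock-labelled libraries and a 95% interval of the log2 fold change of -0.13 to 0.31. Abcd2, an importer of fatty acyl-CoA into peroxisomes, had 3 counts in STAT6-labelled and 11 in Mock-labelled libraries and was not tested.

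The soluble ABC proteins of translation had 3 lower genes and 1 higher. Abce1, which splits ribosomes into subunits after termination, had the most counts of all 48 genes, at 242, 241 and 231 CPM in STAT6-labelled libraries, against 281, 297 and 290.0 CPM in Mock-labelled libraries (log2 fold change -0.28, SE 0.032, adjusted p = 1.4e-09, edgeR). Abcf1, which binds the initiation factor eIF2, was lower to a like extent, at 125, 128 and 129 CPM in STAT6-labelled and 149.6, 150.3 and 158 CPM in Mock-labelled libraries (log2 fold change -0.26, SE 0.035, adjusted p = 2.69e-08). Abcf2 stood out among them, with 136, 132 and 139.8 CPM in STAT6-labelled libraries, against 242, 243 and 248 CPM in Mock-labelled libraries. It was 1.79-fold lower (log2 fold change -0.84, SE 0.033, adjusted p = 2.94e-22) and the 1 gene of the 4 that passed the test for a change beyond 1.5-fold (glmTreat, adjusted p = 3.36e-09). Abcf3, related to the yeast protein GCN20 of the amino acid starvation response, was higher by 1.14-fold, at 32.3 ± 2.67 CPM in STAT6-labelled and 28.1 ± 1.04 CPM in Mock-labelled libraries (SD, n = 3 each; adjusted p = 0.00433, edgeR), a call that was lost with library totals alone (adjusted p = 0.0695).

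Summed over the 48 genes, the family took 1468, 1461 and 1476 CPM in STAT6-labelled libraries, against 2032, 2091 and 2048 CPM in Mock-labelled libraries. A large part of this gap was Abca12: without it the sums were 1461, 1455 and 1468 CPM in STAT6-labelled and 1681, 1720 and 1702 CPM in Mock-labelled libraries. Abca12 made up 0.503% ± 0.0399 of the family's counts in STAT6-labelled libraries and 17.3% ± 0.422 in Mock-labelled libraries (SD, n = 3 each). The other A genes together had 18.5% ± 0.271 of the family's counts in STAT6-labelled and 9.004% ± 0.156 in Mock-labelled libraries. Shares of subfamily B were 17.6% ± 0.116 in STAT6-labelled and 17.3% ± 0.182 in Mock-labelled libraries, and those of F were 20.1% ± 0.342 in STAT6-labelled and 20.7% ± 0.590 in Mock-labelled libraries. The Abcg genes, nearly all Abcg2 by count, had 3.38% ± 0.141 in STAT6-labelled and 1.72% ± 0.0562 in Mock-labelled libraries. All these shares are of a total that was itself lower in STAT6-labelled libraries, at 0.714 of the Mock-labelled mean. The share of B was near equal although its 6 tested genes were all called lower. That of the Abcg genes had a ratio of 1.96 where Abcg2 was 1.41-fold higher. The shares also follow read counts, to which longer transcripts give more, and say nothing of which protein is more abundant. In RNA pooled over many cells, fewer cells with a transcript and less of it per cell cannot be told apart.

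**Figure D3:**
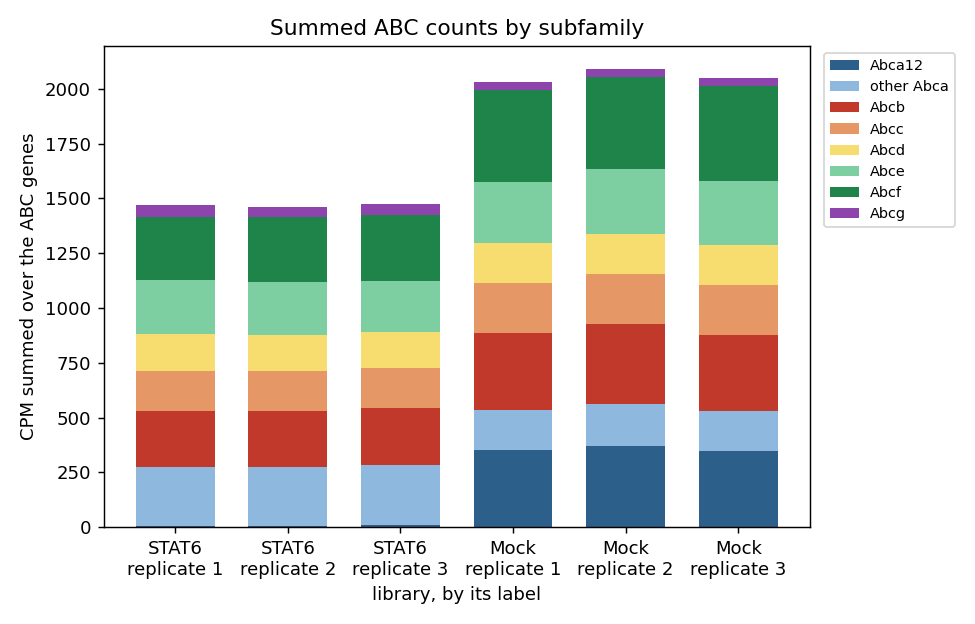
CPM summed over the 48 ABC genes in each library, stacked by subfamily with Abca12 drawn apart from the other Abca genes; the 3 libraries labelled STAT6 are on the left and the 3 labelled Mock on the right. The sums are 1461 to 1476 CPM on the left and 2032 to 2091 CPM on the right, and the dark blue block of Abca12 is barely visible on the left.

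The other 22 genes had too few reads to test, from 1 to 52 counts over all 6 libraries for 18 of them and 0 counts for Abca15, Abca16, Abcg3 and Abcg5. In a library of 19894773 counts, 0 allows up to 0.155 CPM, as 3 counts of its TMM-adjusted total; this covers counting error only. Abca9 had 0 counts over STAT6-labelled libraries and 5, 5 and 5 counts in Mock-labelled libraries, and was at least 4.098-fold lower with 3 counts over the whole group as the floor and on the adjusted totals that CPM uses. Abca8a had 1 count in STAT6-labelled and 25 in Mock-labelled libraries, a ratio of 0.0488 (95% counting interval 0.00119 to 0.298). With no filter on low counts edgeR called these 2 as lower (adjusted p = 0.00222 for Abca9 and 0.000427 for Abca8a) and none of the other 16. With Abca12 and Abca13, the A genes with lower calls under that setting were 4. Its adjusted p-values are not on the scale of the main fit. For Abca7 edgeR gave 2.27e-168 there against 1.1e-23 in the main fit, and for Abcb9 0.0573 against 0.0262.

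Among the genes seen rarely are several with set roles in other organs. Abcb11, the bile salt export pump of liver, had 1 count in each group, and Abcb4, which flips phosphatidylcholine into bile, had 3 counts in STAT6-labelled and 10 in Mock-labelled libraries, 8 of them in Mock replicate 3. The sulfonylurea receptor genes Abcc8 and Abcc9, regulatory subunits of ATP-sensitive potassium channels, had 1 and 4 counts in STAT6-labelled libraries and 2 and 2 in Mock-labelled libraries. Their channel pores Kcnj8 and Kcnj11 had 1 and 0 counts in STAT6-labelled libraries and 1 and 1 in Mock-labelled libraries. Abcb5, studied as a marker of human melanoma subpopulations, had 1 count in STAT6-labelled libraries and 0 in Mock-labelled libraries. The retinal transporter Abca4 had 16 counts in STAT6-labelled and 17 in Mock-labelled libraries, and the sterol transporter Abcg4 had 20 in STAT6-labelled and 32 in Mock-labelled libraries. Their 95% counting intervals of the ratio, 0.543 to 2.42 and 0.413 to 1.38, include 1.

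The family has 3 further members whose mouse symbols do not start with Abc. Tap1 and Tap2, which together carry peptides into the endoplasmic reticulum for MHC class I, were both higher. Tap1 had 12.1, 12.8 and 11.1 CPM in STAT6-labelled libraries, against 3.56, 3.36 and 3.500 CPM in Mock-labelled libraries (log2 fold change 1.78, SE 0.11, adjusted p = 1.95e-16, edgeR), and Tap2 had 3.498, 3.298 and 3.73 CPM in STAT6-labelled and 0.477, 0.604 and 0.949 CPM in Mock-labelled libraries (log2 fold change 2.32, SE 0.23, adjusted p = 5.24e-11). Both fitted changes are larger than that of any higher gene among the 26 tested ABC genes, which leave out Abca1 and Abcg1. Cftr, the chloride channel mutated in cystic fibrosis, had 1 count in STAT6-labelled and 15 in Mock-labelled libraries, a ratio of 0.0813 (95% counting interval 0.00193 to 0.529).

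The pathways that these proteins serve were described by lists, with counts and medians only, and values in parentheses are log2 fold changes. For iron-sulfur cluster and haem synthesis, around Abcb6, Abcb8 and Abcb10, 8 genes were higher, 13 lower and 12 not called of 33 tested, with a median log2 fold change of -0.076. As shares, 24.2% were higher and 39.4% lower. Among those with the smallest adjusted p, Aco1, the cytosolic aconitase that doubles as an iron sensor (-1.03), Isca1, which takes part in cluster assembly (-0.54), and the chaperone gene Hspa9 (-0.25) were lower. Aco1 had 31.1, 32.7 and 32.9 CPM in STAT6-labelled libraries, against 64.3, 65.9 and 67.6 CPM in Mock-labelled libraries (adjusted p = 2.03e-20, edgeR). With library totals alone 5 genes of this list were higher and 19 lower.

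Of 30 tested peroxisome genes 12 were higher and 11 lower, with a median of 0.031. These shares of 40% and 36.7% are near the 35.8% and 36.8% of all tested genes. Acox3, an oxidase of branched-chain acyl-CoA (1.31), and Pex3, which founds peroxisomal membranes (1.07), were higher. The hydratase gene Ehhadh (-1.03) and Phyh, which starts phytanic acid breakdown (-2.73), were lower. Phyh had 1.99, 1.96 and 1.27 CPM in STAT6-labelled and 10.7, 11.8 and 12.2 CPM in Mock-labelled libraries (adjusted p = 6.32e-19, edgeR), a larger change than that of Abcd3.

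For cobalamin handling 3 genes were higher (27.3%) and 7 lower (63.6%) of 11, around a median log2 fold change of -0.44. Lmbrd1, the lysosomal partner of Abcd4, was higher (0.76, adjusted p = 6.14e-20, edgeR), at 174, 179 and 169.9 CPM in STAT6-labelled libraries, against 106, 104 and 99.9 CPM in Mock-labelled libraries, while Abcd4 was not called. Tcn2, the cobalamin carrier of plasma, was higher too (0.64), and Mmab (-0.84) and Mmut (-0.32), enzymes of the mitochondrial branch, were lower.

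Glutathione synthesis and conjugation, which feeds the Abcc exporters, had 4 higher (16.7%) and 15 lower (62.5%) genes of 24 tested, around a median log2 fold change of -0.26. Among all tested genes 36.8% were called lower and 35.8% higher. Of the 16 tested glutathione transferase (Gst) genes of this list, 12 were lower, 2 higher and 2 not called. That grouping was made after the values were seen. Gstm2 was among the lower (-1.89) and Gstt3 was higher (2.11). Gsta4, which clears lipid aldehydes, had 3 counts in STAT6-labelled and 398 in Mock-labelled libraries. It was called lower (log2 fold change -6.61, SE 0.36, adjusted p = 3.07e-18, edgeR). The ratio taken from its counts, outside the fit, was 0.009196 (95% counting interval 0.00189 to 0.0271). Gss, glutathione synthetase, was higher (1.03), at 32.1, 28.6 and 31.4 CPM in STAT6-labelled and 15.1, 14.96 and 15.1 CPM in Mock-labelled libraries (adjusted p = 1.76e-16, edgeR). Transferases of a class are close in sequence, so the assignment of their reads is uncertain.

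Of the receptors and factors known to act on ABC genes elsewhere, 3 were higher (23.1%) and 7 lower (53.8%) of 13 tested, around a median log2 fold change of -0.15. The sterol factors Srebf1 (-1.60) and Srebf2 (-1.02) were lower, and so was Rxra (-0.43), the shared partner of the lipid-sensing nuclear receptors. Nr1h4, the bile acid receptor, was higher (0.91), at 44.3, 41.5 and 42.7 CPM in STAT6-labelled libraries, against 22.4, 22.7 and 23.4 CPM in Mock-labelled libraries (adjusted p = 5.35e-17, edgeR). Abcb11, whose gene this receptor drives in liver, had 1 count in each group.

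Ribosome recycling, rescue and GCN2 control, the setting of Abce1 and the Abcf proteins, had 5 higher (22.7%) and 15 lower (68.2%) genes of 22 tested, a median of -0.20, and none past 2-fold. Eif2s2, a subunit of the factor that Abcf1 binds (-0.40), and the helicase gene Ascc3 (-0.53) were lower. Hbs1l, which with Pelo opens stalled ribosomes for Abce1 (0.53), and Impact, an inhibitor of GCN2 (0.47), were higher, while Pelo itself was lower (-0.40). Hbs1l had 173, 171 and 174 CPM in STAT6-labelled libraries, against 122, 118 and 118 CPM in Mock-labelled libraries (adjusted p = 2.78e-16, edgeR).

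**Figure D4:**
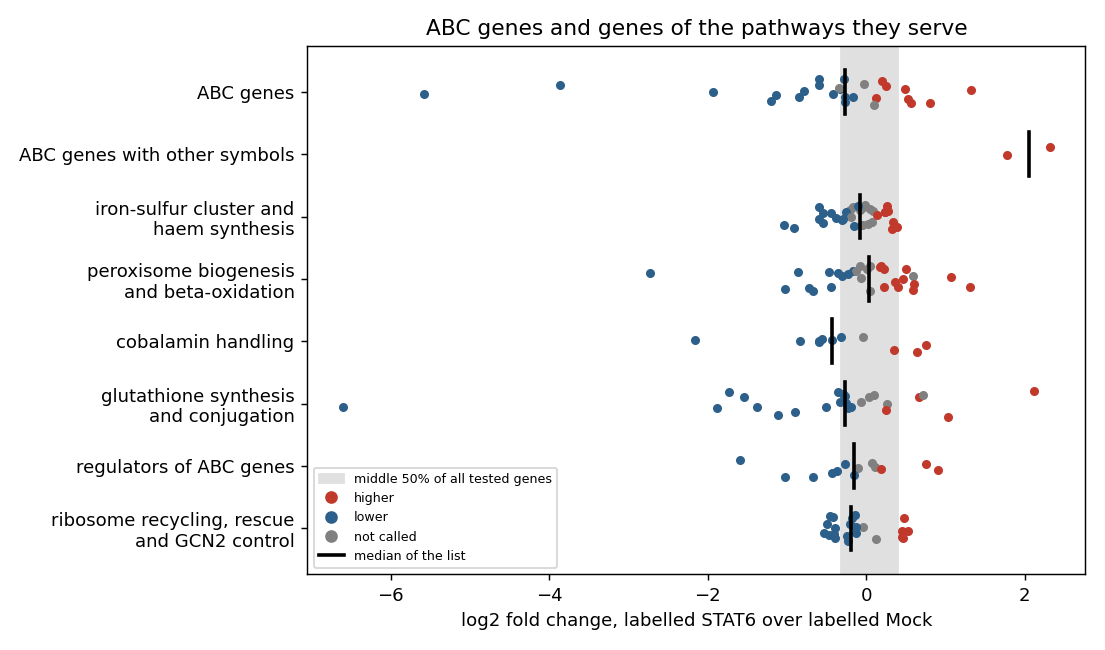
Log2 fold change, libraries labelled STAT6 over Mock-labelled libraries, of each tested gene of the ABC family and of the 7 lists with a tested gene, coloured by call, with the list's median as a black line; the grey band holds the middle 50% of all tested genes, from -0.32 to 0.40. The ABC genes have their median at -0.27, Tap1 and Tap2 lie on the right at 1.78 and 2.32, and Gsta4 is farthest to the left.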

How the data were processed

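RNAiso Plus and a TruSeq stranded mRNA kit were used, per the labels' protocols. FastQC, STAR, Salmon, edgeR and the build GRCh37 are named without versions in the submitters' processing notes; for the counting step, strand setting and filters the method is not given in the sources used here. The deposited files hold raw whole-number counts per gene symbol. No mouse sequence, gene length or annotation was used here.

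Counts were tested with edgeR 4.0.16 in R 4.3.3: filterByExpr (12938 genes kept, 99.9% of counts), TMM factors (0.968 to 1.03), glmQLFit with robust = TRUE and glmQLFTest, 2-sided, group as the only term, Benjamini-Hochberg over all tested genes, threshold 0.05. The fit was tested on simulated data in which far fewer genes changed than were called here. CPM and ratios of low counts use TMM-adjusted totals. Intervals of low counts are exact conditional 95% intervals. Alternatives were other scalings, filters and thresholds, DESeq2 1.42.0, limma-voom (3.58.1), a replicate block and each library left out.

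The members and lists were chosen with earlier results of these data known. Values in every library were given for members called with at least 1.5-fold and 1 CPM, for the 5 with most counts, and for others where a statement rests on them, chosen after their values were seen. Values of 2 tested members and 1 gene of a related list are not reported here, but counts over the members and lists include them. Related lists give up to 4 genes with the smallest adjusted p. Pelo, given beside its partner Hbs1l, falls outside that rule.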

Additional observations from a re-analysis of the deposited data

How the results depend on the processing

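Of 389 values of the 26 tested ABC genes under the alternatives run, 370 kept their direction and their side of the threshold, 15 lost a call, 4 gained one and 0 reversed; 21 of the genes did so under every alternative run on them. Abcb9, Abcc5, Abcc10 and Abcf3 were among the genes whose call moved. With library totals alone 5 ABC genes were called higher, and of iron-sulfur cluster and haem synthesis 5 genes were called higher and 19 lower, against 8 and 13 with TMM; this scaling shifts the median of all genes by -0.074 on the log2 scale. With no filter on low counts 1 of the ABC genes with other symbols, Cftr, was called lower, and with a filter of 1 CPM in 3 libraries 5 regulators of ABC genes were called higher; the cause was not tested for any of these. Leaving out 1 library gave 6 to 8 ABC genes higher and 14 to 16 lower, with 5 at least 2-fold lower each time. Same-numbered libraries deviated together with correlations of 0.052, 0.102 and 0.031, against -0.083 to 0.035 for libraries of unlike number. Of 6 libraries, 5 correlated best with their own number. Whether the numbers mark pairs was not tested, and the main fit left them out. With the replicate block 8 ABC genes were higher and 15 lower, as without it, and 9422 of all genes were called against 9399. Depth limits what can be said of the 22 untested genes.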
